A study of Mus musculus with 24 samples.

Results

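Of the 24 RNA sequencing libraries in the series, 6 are described here: 3 libraries of mouse lung fibroblasts labelled TLR4-/- and given rmCIRP, and 3 of the same label given rmCIRP with rmTGF-β1. They were chosen by their genotype and treatment labels alone, and the question they address is what the transforming growth factor programme does to fibroblasts that carry the knockout label while rmCIRP is present. CIRP, cold-inducible RNA-binding protein, is an RNA-binding protein that acts as a danger signal through the receptor TLR4 once it is outside the cell, and rmCIRP and rmTGF-β1 are the recombinant mouse proteins. The cells came from the lungs of C57BL/6 mice aged 4-8 weeks, with 3-4 lungs pooled per group, and were used at passages 3-6 after a night in reduced-serum medium. Every library described here had rmCIRP at 1 μg/ml for 24 h, and the comparison adds rmTGF-β1 at 2 ng/ml for the same time. The side comparisons use 4 more conditions of 3 libraries each: PBS alone and rmTGF-β1 alone in cells labelled TLR4-/-, and the same pair of rmCIRP treatments in wild type cells.

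TGF-β1 is secreted in a latent form held by latent TGF-β binding proteins, and once free it binds the type II receptor, which activates the type I receptor. That receptor phosphorylates SMAD2 and SMAD3, which enter the nucleus with SMAD4 and switch genes on and off together with other factors. In lung fibroblasts the pathway is known for its inhibitory feedback genes, for collagen and other matrix genes, and for the smooth muscle type contractile genes that define a myofibroblast.

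The 3 libraries with rmCIRP held 33222623-35651924 reads counted to genes and the 3 with both proteins 32713478-37691268. The samples are labelled as 3 replicates of a condition, and no source used here says that they came from separate animals or cultures, so the errors and p-values below measure the spread between these libraries, which may be technical. Tlr4, the gene named by the genotype label, had 941, 858 and 908 normalized counts (counts divided by a library size factor) with rmCIRP and 828, 783 and 881 with both proteins, against 771, 725 and 763 in the wild type libraries with rmCIRP. The libraries labelled TLR4-/- thus held more Tlr4 reads than those wild type libraries. A sum over the gene cannot tell whether a deleted stretch was read, so it is no check of the knockout, and TLR4-/- is used below only as a label. The 10 fibroblast marker genes, collagens and Pdgfra among them, summed to 565200-616948 normalized counts with rmCIRP and 493535-585368 with both, so the defining markers of the labelled cell type were present. The 18 macrophage markers were high as well: they summed to 350411-398312 and 362814-451243, with none at 0, against 82731-87744 in wild type libraries with rmCIRP. The 12 epithelial markers summed to 527-626 and 558-587, and the 8 lymphoid markers to 12.1-17.7 and 18.7-27.8, with 2 to 4 and 1 to 4 of them at 0 in a library.

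Libraries are named R1, R2 and R3 for rmCIRP and B1, B2 and B3 for both proteins. Library B3 stood apart from its 2 partners. Over 12311 genes, 178 (1.45%) differed by at least 2-fold in library B3 from the mean of the others, and the SD of its log2 differences was 0.306, against 0.130-0.227 for the other 5 libraries. The counts in the gene groups below are therefore given with and without library B3. Square brackets after a log2 fold change give its value in a fit without the library named, wherever leaving out one of the 6 libraries ended a call, brought one or moved a called value by more than 1.5 times, and a gene is called at an adjusted p-value below 0.1. In the plot of principal components B3 lies at 24.0 on the first axis, farther from the PBS and rmCIRP libraries than its partners. The third library with rmTGF-β1 alone, used in a side comparison, lies at 17.2, against 4.94 and -1.35 for its partners. It too stood apart on this axis. When rmCIRP alone was compared with PBS in cells labelled TLR4-/-, edgeR called 0 of 16258 genes at an adjusted p-value below 0.1, 1136 had an unadjusted p below 0.05, and DESeq2 called 33.

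**Figure D1:**
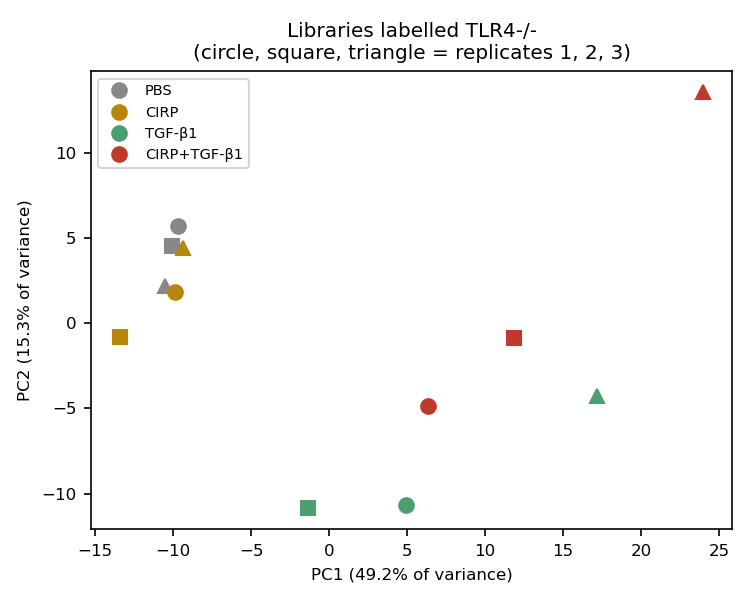
Principal components of the 12 libraries labelled TLR4-/- (each point 1 library, with circle, square and triangle for replicates 1, 2 and 3, coloured by treatment). The axes are component scores of log2 normalized counts. The first component holds 49.2% of the variance and the second 15.3%, and library B3 sits at 24.0 on the first.

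Adding rmTGF-β1 to rmCIRP changed 5329 of the 16258 genes tested at an adjusted p-value below 0.1 (32.8%), of which 2791 were higher (17.2%) and 2538 lower (15.6%). A fold change of at least 2 was reached by 270 of those higher and by 133 of those lower (175 and 84 without library B3). Without library B3, 3802 of 16512 genes were called (23%), 2041 higher and 1761 lower. In both fits 3380 genes were called, all in the same direction. When only the 6 libraries compared were fitted, 1503 genes were called higher and 1207 lower. The shares of 17.2% and 15.6%, or 12.4% and 10.7% without library B3, are the background against which each gene group below is read. Since these are bulk libraries, fewer cells of a type and less RNA of a gene per cell cannot be told apart.

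**Figure D2:**
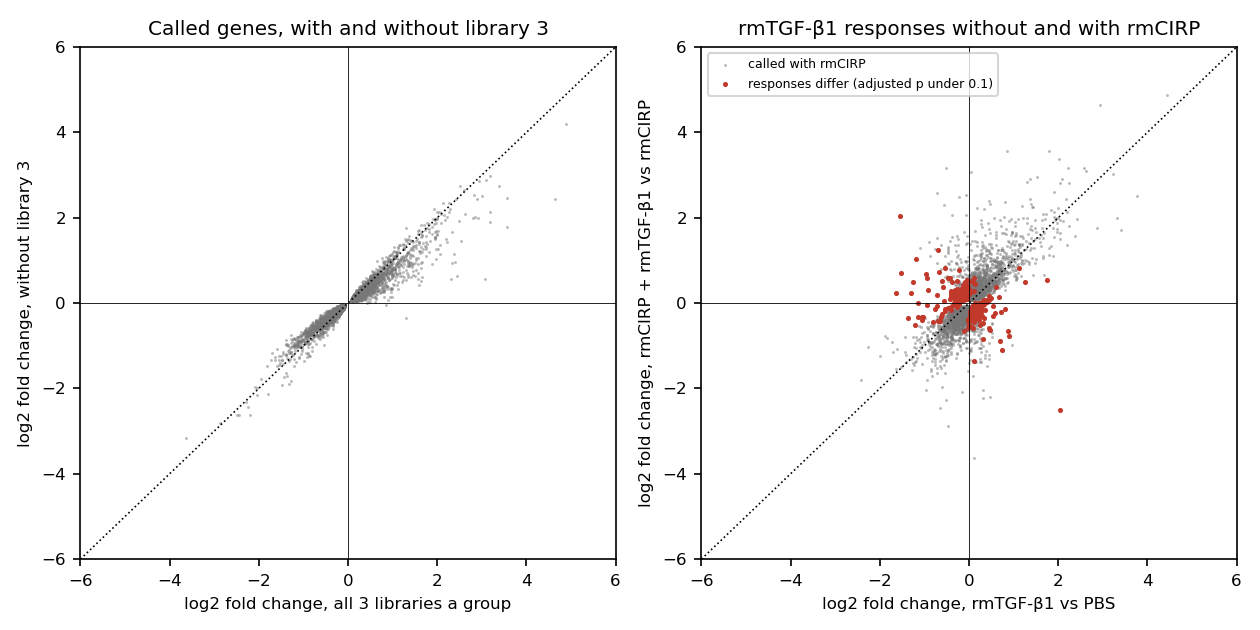
Log2 fold changes of single genes (1 point per gene). Left: the 5329 genes changed by adding rmTGF-β1 to rmCIRP, with all 3 libraries against the same fit without library B3, where 5326 keep their sign. Right: the response to rmTGF-β1 alone against the response with rmCIRP present, with genes in red where the responses differed at an adjusted p-value below 0.1.

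The direct targets and feedback inhibitors of SMAD signalling moved mostly upwards. Of 16 members tested, 11 were higher and 4 lower (12 and 2 without library B3, 2 lower without R1, 2 lower without R2), with a median log2 fold change of 0.18 against -0.01 over all genes tested. Pmepa1, whose product binds receptor SMADs and limits signalling, had 13369, 13525 and 13727 normalized counts with rmCIRP and 18289.9, 18428 and 19291 with both proteins. The groups did not overlap, and the log2 fold change was 0.46 ± 0.04 (edgeR, adjusted p = 9.2e-07). Smad7, the inhibitory SMAD that blocks the type I receptor, went from 4231, 4256 and 4173 to 5184, 5314 and 5003. Again each library with both proteins lay above each with rmCIRP (0.29 ± 0.05, adjusted p = 0.00019). Skil, which encodes the co-repressor SnoN, rose by 0.32 ± 0.04, Tgif1, another co-repressor, by 0.40 ± 0.09 [0.23 without B3], and the ubiquitin ligases Smurf1 and Smurf2 by 0.18 ± 0.04 and 0.19 ± 0.04 on the log2 scale. Tgfbi, a secreted matrix protein named for its induction by TGF-β, gave the widest rise of the group, from 2380.2, 2027 and 2574 to 3623, 3404 and 4390.3 (0.70 ± 0.12, adjusted p = 0.00022). The 4 members that fell were Smad6, the inhibitory SMAD that prefers BMP signals, at -0.64 ± 0.16 [-0.40 without B3], Tsc22d1 at -0.38 ± 0.08 [-0.24 without B3], the pseudoreceptor Bambi at -0.30 ± 0.13 [not called at -0.30, -0.25, -0.32, -0.31 and -0.15 without R1, R2, R3, B2 and B3] and Tgfb1i1 at -0.26 ± 0.09 [not called at -0.24, -0.21 and -0.11 without R1, R2 and B3].

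All 4 Id genes fell, with and without library B3. Id proteins bind basic helix-loop-helix factors and keep them off DNA; they are classical BMP targets that TGF-β represses. Id4 had 782, 766 and 732 normalized counts with rmCIRP and 449.8, 442 and 292 with both proteins. Its groups were well apart (-0.95 ± 0.13, adjusted p = 3.5e-05). Id3 went from 11106, 10622 and 11433 to 9224, 7906 and 5410.1 and also did not overlap (-0.56 ± 0.12 [-0.37 without B3], adjusted p = 0.0018). Id1 and Id2 fell less, by 0.33 ± 0.07 [-0.22 without B3] and 0.17 ± 0.05 on the log2 scale. The same 4 genes were lower after rmTGF-β1 alone in cells labelled TLR4-/-, where 11.7% of all genes were called lower, and after rmTGF-β1 with rmCIRP in wild type cells, where 10.5% were.

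**Figure D3:**
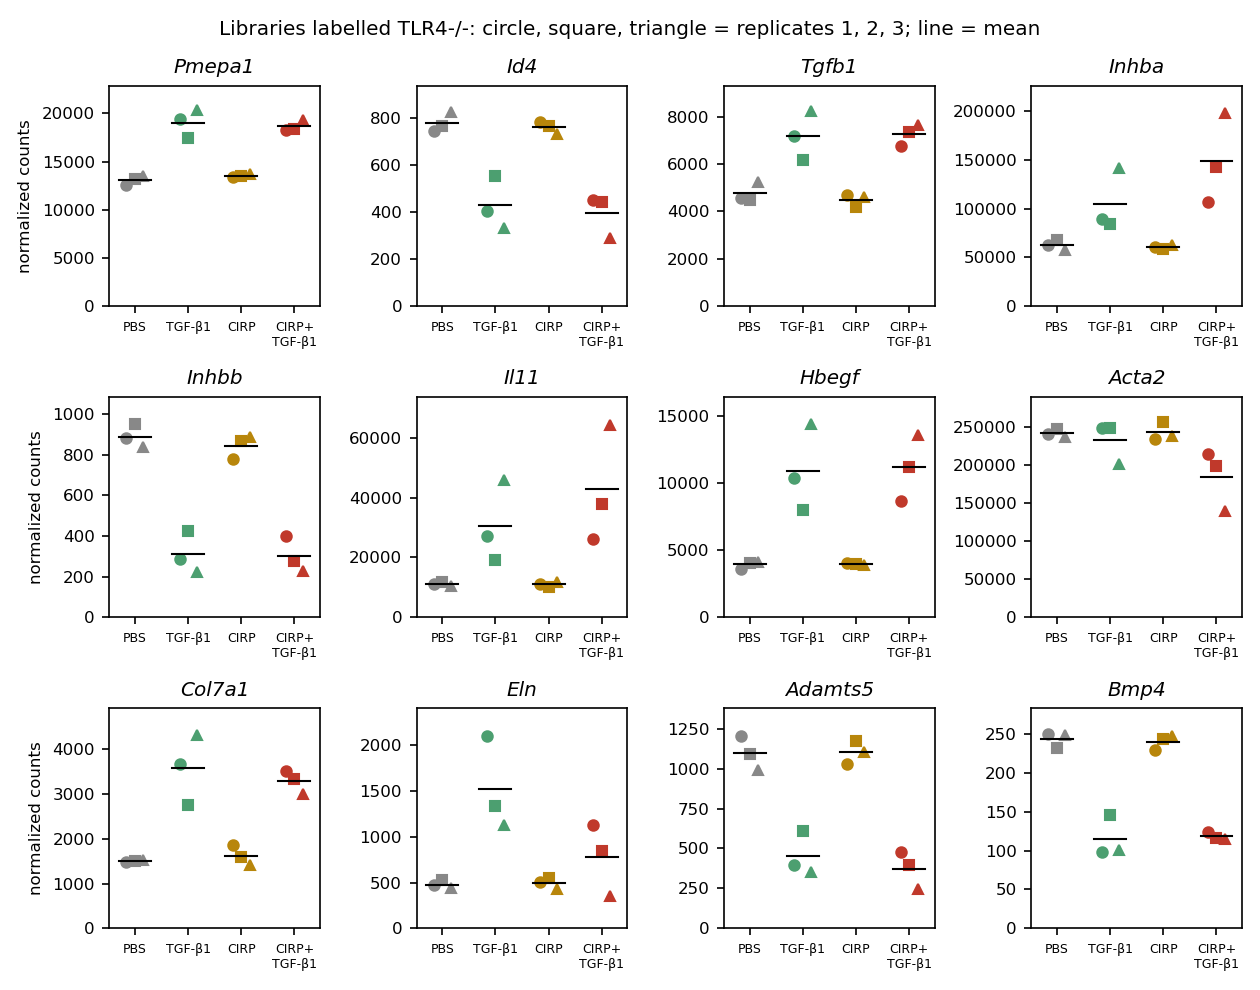
Normalized counts of 12 genes in each of the 12 libraries labelled TLR4-/- (circle, square and triangle are replicates 1, 2 and 3; the line is the mean of 3; each panel has its own linear axis). The 3 libraries with both proteins lie above the rmCIRP libraries for Pmepa1, Tgfb1, Inhba, Il11 and Hbegf and below them for Id4, Inhbb, Adamts5 and Bmp4; library B3 (triangle) is the lowest with both proteins for Acta2 and Eln.

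Among the ligands, receptors and SMADs themselves, 7 of 18 genes were higher and 5 lower (5 and 4 without library B3). The ligand genes moved apart. Tgfb1, the gene of the added ligand itself, went from 4684, 4197 and 4623 to 6773, 7362 and 7651 normalized counts. Every library with both proteins lay above every one with rmCIRP (0.69 ± 0.08, adjusted p = 3.7e-06). Tgfb3 went the other way, from 9812, 10193 and 9521 to 8191, 7073 and 4557 (-0.58 ± 0.13 [-0.37 without B3], adjusted p = 0.0023). Tgfb2 had 719.7, 688 and 669 with rmCIRP and 722, 552 and 363 with both, where library B3 was the lowest, and its log2 fold change was -0.35 ± 0.15 [not called at -0.31, -0.34, -0.37, -0.36 and -0.13 without R1, R2, R3, B2 and B3, -0.59 without B1]. Tgfbr1, the type I receptor, rose by 0.60 ± 0.09 on the log2 scale, the type II receptor Tgfbr2 was at -0.02 ± 0.05 and not called, and the co-receptor Tgfbr3 fell by 0.57 ± 0.12. The latent binding proteins Ltbp1, Ltbp3 and Ltbp4 rose by 0.26 ± 0.05, 0.14 ± 0.04 and 0.56 ± 0.08. Smad9, a SMAD of the BMP branch, fell from 377, 351 and 331 to 287, 171 and 83.4 (-0.97 ± 0.23 [-0.64 without B3], adjusted p = 0.0034), while Smad3 was at -0.02 ± 0.12 and not called.

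The BMP and activin group, ligands of the same superfamily with their antagonists and receptors, had 10 of 23 members higher and 5 lower (5 and 4 without library B3). Inhba and Inhbb encode the 2 subunits from which activins A and B are built, and they moved in opposite directions. Inhba went from 60494, 58451 and 62921 to 106857, 142612 and 198103 normalized counts (1.29 ± 0.17, adjusted p = 1.4e-05). Inhbb went from 777, 868 and 889 to 401, 277 and 226. Neither gene's groups overlapped, and the Inhbb change was -1.49 ± 0.17 (adjusted p = 3.2e-06). The activin antagonists moved in opposite directions too, with Fstl3 at 0.45 ± 0.08 and Fst, follistatin, at -0.28 ± 0.08. Bmp2 and Bmp4, close relatives that signal through the same receptors, likewise parted. Bmp2 had 41.3, 42.7 and 58.0 with rmCIRP and 159, 217 and 706 with both proteins, where library B3 was the highest (2.91 ± 0.49). Bmp4 fell from 229, 243 and 247 to 124, 116 and 114 (-1.03 ± 0.12, adjusted p = 5.4e-06). The receptors Bmpr1b and Bmpr2 rose by 0.36 ± 0.07 and 0.26 ± 0.05, and Bmper, a secreted BMP modulator, fell by 0.33 ± 0.07. Bmp5 (0.65 ± 0.20 [not called at 0.39 without B3]) was called only with library B3 in the fit.

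In the Wnt group, secreted ligands with their receptors and inhibitors, 9 of 23 members rose and 5 fell (10 and 5 without library B3). Among those that rose were 7 Wnt ligands. Wnt2, a lung mesenchymal ligand of the canonical branch, had 252, 249.6 and 320.5 with rmCIRP and 586, 791 and 898 with both (1.46 ± 0.19, adjusted p = 1.4e-05). Wnt5a, the main non-canonical ligand of fibroblasts, went from 2105, 2117 and 2102 to 3671, 4097 and 3202 (0.79 ± 0.08, adjusted p = 1.4e-06). Wnt11, Wnt2b, Wnt5b, Wnt10b and Wnt9a rose by 0.93 ± 0.14, 0.71 ± 0.16, 0.55 ± 0.14, 0.55 ± 0.21 [not called at 0.51, 0.42, 0.29 and 0.56 without R1, R3, B1 and B2] and 0.49 ± 0.11 on the log2 scale. Wnt4 was the one ligand that fell, from 77.7, 91.9 and 99.3 to 74.0, 43.6 and 19.6 (-0.97 ± 0.27 [-1.47 and -0.62 without B1 and B3], adjusted p = 0.011). Of the secreted inhibitors, Sfrp4 rose by 1.39 ± 0.37 and Dkk3 fell by 0.30 ± 0.06; of the receptors, Fzd7 fell by 0.66 ± 0.12.

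Growth factors were one of the groups with most rises: 14 of 32 members tested were higher and 6 lower (13 and 7 without library B3). Ligands of the EGF receptor were among the rises. Hbegf had 4056, 3953 and 3859 normalized counts with rmCIRP and 8665, 11197 and 13606 with both (1.49 ± 0.14, adjusted p = 8.4e-07). Areg, amphiregulin, was low with rmCIRP at 40.3, 29.7 and 25.6 and reached 55.2, 115 and 281 with both, most of it in library B3 (2.22 ± 0.45 [1.43 without B3]). Ereg was called only with library B3 (0.96 ± 0.30 [not called at 0.26 without B3]). Platelet-derived growth factors, mitogens of fibroblasts themselves, rose in 3 of their genes, Pdgfa by 0.46 ± 0.07, Pdgfb by 0.79 ± 0.12 and Pdgfc by 0.71 ± 0.09. Fgf18 went from 155, 190.2 and 156 to 372, 439 and 551 (1.43 ± 0.18, adjusted p = 1.0e-05) and Fgf2 rose by 0.60 ± 0.08, whereas Fgf10, the mesenchymal signal to lung epithelium, fell from 1084, 1025 and 1185 to 695, 736 and 465 (-0.80 ± 0.13, adjusted p = 0.00018). Igfbp3, an insulin-like growth factor binding protein, went from 441, 458 and 549.5 to 829, 1144 and 3785 (1.98 ± 0.42 [1.03 without B3], adjusted p = 0.0016). Vegfa rose by 0.74 ± 0.10; Edn1, the vasoconstrictor endothelin-1, fell by 0.83 ± 0.25 [-1.28 and -0.51 without B1 and B3] and Igf1 by 0.23 ± 0.06.

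The cytokines that signal through gp130 had 4 of 11 members higher and 3 lower (3 and 2 without library B3), and the 4 higher were ligands while the 3 lower were receptor chains. Il11, a fibroblast cytokine known downstream of TGF-β, had 11216, 10228 and 11690.4 normalized counts with rmCIRP and 26304, 37844 and 64181 with both proteins. All 3 values with both lay above all 3 with rmCIRP (1.95 ± 0.25, adjusted p = 1.3e-05). Clcf1 and Osm rose by 0.98 ± 0.20 [0.59 without B3] and 0.80 ± 0.19, and Lif by 0.98 ± 0.25 [not called at 0.33 without B3]. The shared receptor chain Il6st, gp130 itself, fell by 0.32 ± 0.06, the oncostatin M receptor Osmr by 0.29 ± 0.08 and Lifr by 0.25 ± 0.09 [not called at -0.19 and -0.19 without R1 and B3]. Il6 had 11882, 12793 and 13068 and 8065, 12233 and 23010.4 normalized counts, overlapped between the groups and was not called (0.19 ± 0.23 [called at 0.48 without B1]).

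The contractile group, actin, myosin and adhesion plaque genes of smooth muscle and myofibroblasts, held the largest share of falls after the Id genes: 20 of 25 members were lower and 1 higher, with a median log2 fold change of -0.38. Without library B3 the counts were 17 lower and 2 higher and the median -0.20. For 3 genes that fell the 250 bases before the annotated start hold a strict CArG box (CCWWWWWWGG, W being A or T), the site of serum response factor. For Acta2 they hold the TEAD motif CATTCC, here on the other strand. The Acta2 window also holds CCCTATATGG and CCTTGTTTGG, CArG-like stretches with another base inside, which the strict pattern did not count. The windows are shown because these are the sites by which the group is classically defined. The sequences are RefSeq promoters on build GRCm38.p6, written 5′ to 3′ in the direction of transcription, with the motif in capitals, for Myl9 (chr2:156775214-156775463, plus strand), Cnn2 (chr10:79988350-79988599, plus strand), Vcl (chr14:20929148-20929397, plus strand) and Acta2 (chr19:34255374-34255623, minus strand).
Myl9: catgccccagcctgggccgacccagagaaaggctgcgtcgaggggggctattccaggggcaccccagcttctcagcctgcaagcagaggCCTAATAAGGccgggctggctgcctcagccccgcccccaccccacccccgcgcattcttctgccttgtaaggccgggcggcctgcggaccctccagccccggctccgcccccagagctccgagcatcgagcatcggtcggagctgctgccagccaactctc
Cnn2: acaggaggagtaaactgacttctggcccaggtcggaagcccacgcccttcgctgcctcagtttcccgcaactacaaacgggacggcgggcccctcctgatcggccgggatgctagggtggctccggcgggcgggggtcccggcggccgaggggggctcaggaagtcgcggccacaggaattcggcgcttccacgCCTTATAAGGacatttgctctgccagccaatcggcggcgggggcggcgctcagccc
Vcl: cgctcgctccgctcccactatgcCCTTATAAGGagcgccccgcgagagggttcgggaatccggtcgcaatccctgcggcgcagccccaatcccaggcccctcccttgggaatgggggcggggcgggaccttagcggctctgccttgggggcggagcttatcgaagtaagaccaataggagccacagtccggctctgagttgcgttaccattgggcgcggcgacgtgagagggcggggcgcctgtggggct
Acta2: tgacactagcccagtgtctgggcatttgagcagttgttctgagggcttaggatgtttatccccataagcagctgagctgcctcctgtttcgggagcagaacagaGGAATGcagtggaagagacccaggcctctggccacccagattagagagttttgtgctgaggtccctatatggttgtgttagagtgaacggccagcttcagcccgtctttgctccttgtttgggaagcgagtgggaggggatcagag
In both strands of these windows, the strict CArG box was present in 4 of 22 contractile genes with a promoter entry (18.2%), against 1.42% of 11657 genes tested and 2.59% of 1934 genes called lower. Looser forms such as those of Acta2 were not counted in any of these sets. CATTCC was present in 9 of 22 (40.9%) against 13.1% of the genes tested, the AP-1 motif TGANTCA in 3 of 22 (13.6%) against 6.17%, and the SMAD box CAGACA in 5 of 22 (22.7%) against 16.7%. These shares describe letters in a window and do not show that a factor binds there, and no motif was tested against the size of the fall.

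Acta2, smooth muscle α-actin, had 233835, 256692 and 237522 normalized counts with rmCIRP and 213815, 198599 and 139288 with both proteins. Library B3 was the lowest of the latter, though its partners also lay below every rmCIRP library (-0.41 ± 0.10 [-0.24 without B3], adjusted p = 0.0054). Myl9, the regulatory myosin light chain, went from 33399, 35442 and 34248 to 30736, 28369 and 20206 (-0.38 ± 0.10 [-0.22 without B3], adjusted p = 0.0053). Cnn1, calponin, went from 29224, 30251 and 29736 to 27882, 24761 and 14889 (-0.41 ± 0.13 [-0.18 without B3], adjusted p = 0.024). The widest falls were in Lmod1, an actin nucleator of smooth muscle, from 6899, 7429 and 6813 to 5351, 4258 and 2101 (-0.86 ± 0.19 [-0.56 without B3], adjusted p = 0.0027), and in Mylk, the myosin light chain kinase, from 11248, 11769 and 10896 to 8664, 7097 and 3942 (-0.79 ± 0.17 [-0.52 without B3], adjusted p = 0.0019). Vcl, vinculin, fell by 0.46 ± 0.08 and Cnn2 by 0.37 ± 0.10 [-0.20 without B3], and the tropomyosins Tpm1 and Tpm2 by 0.40 ± 0.08 [-0.27 without B3] and 0.42 ± 0.07. Cald1 (-0.18 ± 0.05 [not called at -0.10 without B3]), Actn1 (-0.18 ± 0.06 [not called at -0.15 and -0.08 without R2 and B3]) and Actn4 (-0.17 ± 0.05 [not called at -0.13 and -0.08 without R2 and B3]) lost their call without library B3. Tagln, transgelin, had 747, 679 and 690.1 and 834, 849 and 609 and was not called (0.11 ± 0.11 [called at 0.25 without B3]), and Smtn, smoothelin, was the member that rose (0.21 ± 0.04). The 8 mural cell markers, genes of pericytes and smooth muscle, summed to 50686-53715 normalized counts with rmCIRP and 29734-49009 with both proteins. They include Cnn1, given above, which holds much of this sum, so the sum is not separate from the contractile group. Of the 8 markers, 2 were called higher and 4 lower (2 and 3 without library B3). The part of mural cells in the falls was not tested. After rmTGF-β1 alone in cells labelled TLR4-/-, where 12.1% of all genes were higher and 11.7% lower, 4 of 25 members were lower and 1 higher. The median was -0.06. In wild type cells with rmCIRP, where 10% of all genes were higher and 10.5% lower, 0 members were lower and 2 higher, with a median of -0.05. The difference between the responses with and without rmCIRP was called for only 2 of 25, Tpm1 and Tpm2. Between the genotype labels it was called for 4 of 25, all with the lower response under the TLR4-/- label.

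**Figure D4:**
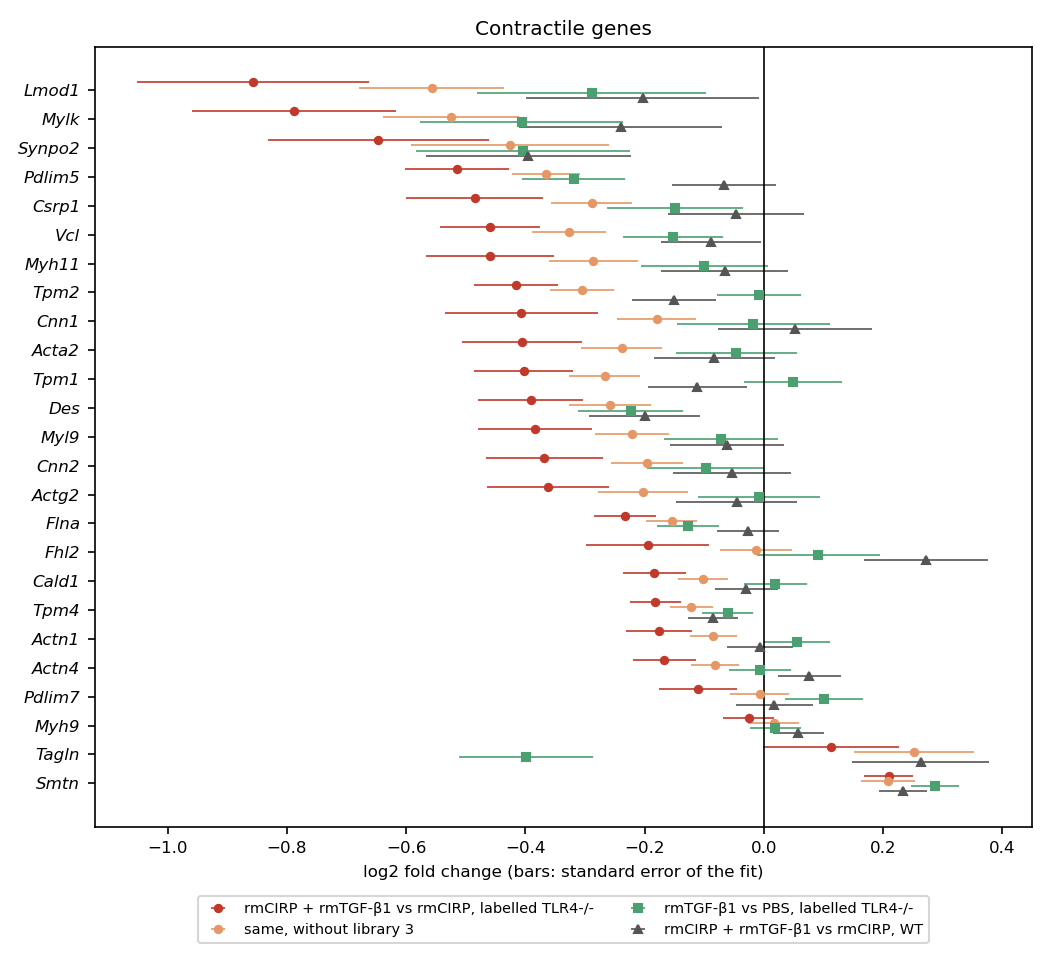
Log2 fold changes (points) with standard errors (bars) of 25 contractile genes for adding rmTGF-β1 to rmCIRP in cells labelled TLR4-/-, with all libraries and without library B3, for rmTGF-β1 alone in cells labelled TLR4-/-, and for adding rmTGF-β1 to rmCIRP in wild type cells. In the first comparison 20 genes are called lower and 1 higher, without library B3 they are 17 and 2, with rmTGF-β1 alone 4 and 1, and in wild type cells 0 and 2. The difference between responses is called for 2 genes with against without rmCIRP and for 4 between the genotype labels.

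Fibrillar collagens did not move as a group: 2 of 11 rose and 3 fell (3 and 1 without library B3, 1 lower without R3). Col1a1, the main chain of type I collagen, had 247454, 251099 and 259084 normalized counts with rmCIRP and 252212, 229073 and 174630.0 with both proteins. Library B3 was the lowest of these, and the log2 fold change was -0.21 ± 0.08 [not called at -0.20, -0.20 and -0.07 without R2, R3 and B3, -0.33 without B1]. Col1a2, the other chain of type I collagen, was at -0.22 ± 0.07 [not called at -0.18 and -0.13 without R3 and B3], and Col3a1 was not called (-0.09 ± 0.12). Col5a3, a minor fibrillar chain, rose from 5596, 5253 and 5532 to 9777, 11642 and 16787 (1.22 ± 0.16, adjusted p = 2.1e-05), and Col27a1 by 0.78 ± 0.12. Of 23 other collagens tested, 6 rose and 10 fell (4 and 6 without library B3, 6 lower without R2). Col7a1, the anchoring fibril collagen, went from 1864, 1589 and 1416 to 3522, 3328 and 3002 (1.01 ± 0.13, adjusted p = 1.4e-05). Col18a1 and Col15a1 rose by 0.58 ± 0.11 and 0.38 ± 0.09, whereas the basement membrane chains Col4a5 and Col4a6 fell by 0.43 ± 0.08 and 0.61 ± 0.10 and the microfibril chains Col6a1 and Col6a2 by 0.24 ± 0.07 and 0.19 ± 0.07 [not called at -0.12, -0.16 and -0.15 without R3, B1 and B2]. Col13a1 had 10.8, 6.50 and 16.7 with rmCIRP and 13.8, 19.6 and 140.1 with both, where library B3 holds most of the reads (2.30 ± 0.69 [not called at 0.57 without B3]).

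The collagen processing enzymes had 4 of 23 members higher and 4 lower (5 and 2 without library B3, 2 lower without R2, 2 lower without R3, 7 lower without B1). After rmTGF-β1 alone, where 12.1% of all genes were higher and 11.7% lower, 9 were higher and 3 lower. The difference between these responses was called for 3 members. Lox, lysyl oxidase, which cross-links collagen and elastin, went from 81653, 86468 and 86615 to 103972, 112128 and 86417 (0.24 ± 0.07 [not called at 0.16 without B2], adjusted p = 0.016). Plod3, a lysyl hydroxylase, rose by 0.18 ± 0.04 and Tgm2, transglutaminase 2, by 0.19 ± 0.05. In the elastic fibre group 3 of 13 rose and 4 fell (3 and 2 without library B3). Eln, elastin, had 503, 551 and 429.6 normalized counts with rmCIRP and 1134, 846 and 353 with both proteins, so that libraries B1 and B2 lay above all rmCIRP libraries and library B3 below them. Its log2 fold change was 0.65 ± 0.27 [not called at 0.67, 0.75, 0.56, 0.29 and 0.59 without R1, R2, R3, B1 and B2, 0.99 without B3] (adjusted p = 0.084). Emilin1 and Mfap5, proteins of the microfibril coat, rose by 0.37 ± 0.05 and 0.28 ± 0.06, while Fbn2, fibrillin-2, fell by 0.77 ± 0.16 and Fbln5, fibulin-5, by 0.29 ± 0.07.

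Matricellular genes gave 4 of 19 higher and 5 lower (2 and 3 without library B3). Thbs2 and Smoc2 rose by 0.55 ± 0.09 and 0.87 ± 0.11, and Smoc1 fell by 0.50 ± 0.13 [-0.28 without B3]. Some genes often read as fibrosis markers were not called: Fn1, fibronectin, was at -0.12 ± 0.06 [called at -0.16 and -0.16 without B1 and B2], Postn, periostin, at 0.02 ± 0.07, Spp1, osteopontin, at 0.01 ± 0.07 and Ccn2, connective tissue growth factor, at -0.03 ± 0.09. Of the 5 CCN genes Ccn4 rose by 0.27 ± 0.07 and Ccn5 fell by 0.81 ± 0.14.

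Proteoglycan and hyaluronan genes had 7 of 24 members higher and 5 lower (5 and 4 without library B3). Tnfaip6, TSG-6, which links hyaluronan to other matrix proteins, went from 137, 125 and 139 to 263, 408 and 658 (1.72 ± 0.29, adjusted p = 0.00019). Has2, a hyaluronan synthase, rose by 0.62 ± 0.07 and Cd44, the hyaluronan receptor, by 0.51 ± 0.10. Cemip, which takes part in breaking hyaluronan down, fell from 56074, 60349 and 57209 to 33584, 25349.8 and 17191 (-1.20 ± 0.17, adjusted p = 3.4e-05). Prelp and Sdc4 fell by 0.61 ± 0.10 and 0.43 ± 0.07.

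Matrix proteases had 4 of 25 members higher and 10 lower (3 and 6 without library B3, 7 higher without B1, 6 lower without R1, 5 lower without R3). ADAMTS genes made up 6 of the 10 falls. Adamts5, the aggrecan-cutting member, went from 1026, 1176 and 1104 to 475, 398 and 249 normalized counts. The groups lay far apart (-1.56 ± 0.16, adjusted p = 1.7e-06). Adamts1 fell from 2417, 2432 and 2584 to 1407, 1419 and 1032 (-0.95 ± 0.09, adjusted p = 9.4e-07), and Mmp16, a membrane-type metalloproteinase, fell by 0.97 ± 0.16. Mmp10, stromelysin-2, rose from 4292, 4155 and 4549 to 4801, 8647 and 16813 (1.21 ± 0.27 [0.63 without B3], adjusted p = 0.0025). In the TIMP and plasminogen group 7 of 11 members rose and 1 fell (6 and 2 without library B3, 0 lower without R2). Timp1 and Timp3, which inhibit metalloproteinases, rose by 0.33 ± 0.07 and 0.36 ± 0.07, and Plat, tissue plasminogen activator, by 0.84 ± 0.20 [0.42 without B3]. Serpinb2, PAI-2, had 6014, 5362 and 6928 with rmCIRP and 10093, 19464 and 42964 with both (1.98 ± 0.41 [1.28 without B3], adjusted p = 0.0013). Plau, urokinase, was at -0.11 ± 0.12 [called at -0.39 without B3] and not called with all libraries.

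Of 19 integrin genes, the receptors by which cells hold matrix, 6 rose and 5 fell (7 and 4 without library B3). Itgb3 went from 1247, 1142 and 1344 to 2361, 3463 and 5713 (1.62 ± 0.23, adjusted p = 3.9e-05). Itgav, its partner in a receptor that can free latent TGF-β, rose by 0.22 ± 0.05, and Itga5, the fibronectin receptor chain, by 0.17 ± 0.04. Itga2, a collagen receptor chain, rose from 719.7, 631 and 752 to 1373, 1987 and 3681, with library B3 the highest (1.74 ± 0.28). Itga8 and Itga1 fell by 0.51 ± 0.08 and 0.63 ± 0.12.

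Transcription factors of the mesenchyme were split, 8 of 31 higher and 8 lower (8 and 6 without library B3). Sox9, a cartilage and lung mesenchyme factor, went from 308, 285 and 299.8 to 519.8, 683 and 932 (1.25 ± 0.22, adjusted p = 0.00031), and Runx1, Runx2 and Sox4 rose by 0.61 ± 0.06, 0.53 ± 0.07 and 0.70 ± 0.10. Meox1 had 12.8, 20.4 and 21.6 and 42.4, 38.3 and 35.0 (1.07 ± 0.24, adjusted p = 0.0023). The lung fibroblast identity factor Tcf21 fell from 686, 696 and 741 to 601, 463 and 407 (-0.53 ± 0.12, adjusted p = 0.0029) and Prrx1 by 0.61 ± 0.08. Tead1, a factor that binds the TEAD motif above, fell by 0.39 ± 0.06, and Srf, serum response factor, was at -0.03 ± 0.09 and not called.

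Inflammatory genes had 5 of 29 members higher and 6 lower, and 4 and 10 without library B3. After rmTGF-β1 alone, where 12.1% of all genes were higher and 11.7% lower, 4 were higher and 13 lower. In wild type cells with rmCIRP, where 10% and 10.5% of all genes were, 0 were higher and 13 lower. The difference between the responses with and without rmCIRP was called for 1 member. Between the genotype labels the response was higher under the TLR4-/- label for 6 and lower for 2. Library B3 decided much of this group. Cxcl1, a neutrophil chemokine, had 333, 436 and 390.3 normalized counts with rmCIRP and 166, 261 and 1334 with both proteins, where library B3 was the highest and its partners the lowest of all 6. It was not called with all libraries (0.57 ± 0.45 [called at 1.01 and -0.85 without B1 and B3]), but it was called lower without library B3. Cxcl5 (-0.50 ± 0.27 [called at -1.04 without B3]) was likewise called lower only without library B3, and so were Cxcl2, Ccl2, Ccl7 and Vcam1. Ccl4 and Ccl3, macrophage chemokines, fell with and without it: Ccl4 went from 779.6, 773 and 834 to 429, 378 and 264 (-1.16 ± 0.15, adjusted p = 1.8e-05) and Ccl3 fell by 1.02 ± 0.14. Tnf fell by 0.58 ± 0.11. Il1a, interleukin-1α, rose from 147, 108 and 125 to 179.5, 256 and 362 (1.06 ± 0.22, adjusted p = 0.0015), Il1b by 0.59 ± 0.21 [not called at 0.52 and 0.30 without R1 and B2] and Ptgs2, the prostaglandin synthase COX-2, by 0.84 ± 0.13. Of 18 macrophage markers 4 were higher, Cd68, C1qa, C1qc and Mertk, and 2 lower, Mrc1 and Marco (2 and 2 without library B3); the part of macrophage content in these cytokine values was not tested.

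The TLR4 and NF-κB pathway itself had 7 of 24 members higher and 3 lower, but 3 and 7 without library B3. After rmTGF-β1 alone, where 12.1% of all genes were higher and 11.7% lower, 0 were higher and 8 lower. In wild type cells with rmCIRP, where 10% and 10.5% of all genes were, 0 were higher and 13 lower. The difference between the responses with and without rmCIRP was called for 0 members. Between the genotype labels the response was higher under the TLR4-/- label for 1 and lower for 0. Nfkb1, a subunit of NF-κB, was at 0.40 ± 0.15 [not called at 0.39, 0.40 and 0.10 without R1, R2 and B3] and Tnfaip3, the inhibitor A20, at 0.56 ± 0.15 [not called at 0.31 without B3]. Myd88, the adaptor of most Toll-like receptors, was at -0.15 ± 0.05 [not called at -0.13, -0.14 and -0.13 without R1, R3 and B2]. Tlr4 itself was not called (-0.13 ± 0.06 [called at -0.17 without B3]). Interferon-stimulated genes gave 0 of 26 higher and 7 lower (0 and 5 without library B3, 13 lower without R1, 2 lower without R2), and complement genes 0 and 3 of 13 (0 and 2, 1 lower without R3). Library R2 stood high in the interferon genes: Ifit3 had 99.3, 684 and 108 with rmCIRP and 62.1, 73.9 and 85.5 with both proteins.

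Of 19 redox genes 5 rose and 4 fell (6 and 3 without library B3, 8 higher without B1, 9 higher without B2, 2 lower without R2). Slc7a11, the cystine importer, went from 964, 806 and 908 to 1212, 1508 and 2919 (1.07 ± 0.22 [0.61 without B3], adjusted p = 0.0012) and Hmox1, heme oxygenase-1, from 40026, 38658 and 39167 to 45206, 52882 and 110237 (0.82 ± 0.19 [0.32 without B3], adjusted p = 0.0036). Aldh1a3 rose by 1.27 ± 0.13 and Aldh1a1 fell by 0.89 ± 0.11, a pair of enzymes that make retinoic acid. Nox4, the NADPH oxidase known as a TGF-β target in fibroblasts, was at 0.29 ± 0.14 [called at 0.52 without B3] and not called with all libraries.

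The serine, proline and amino acid response genes were among the groups with most rises. They had 15 of 21 members higher and 1 lower (11 and 1 without library B3, 2 lower without B1). After rmTGF-β1 alone, where 12.1% of all genes were higher and 11.7% lower, 5 were higher and 2 lower. In wild type cells with rmCIRP, where 10% and 10.5% of all genes were, 6 were higher and 0 lower. The difference between the responses with and without rmCIRP was called for 0 members. Between the genotype labels the response was higher under the TLR4-/- label for 1 and lower for 2. Slc7a5, a large neutral amino acid transporter, went from 2067, 2069 and 2238 to 2841, 2945 and 4168 (0.64 ± 0.10, adjusted p = 9.9e-05). Chac1, which degrades glutathione and is a target of ATF4, went from 404, 415 and 428 to 619, 555 and 771 (0.63 ± 0.11, adjusted p = 0.00022). Asns and Shmt2 rose by 0.30 ± 0.07 [0.16 without B3] and 0.33 ± 0.07 [0.21 without B3], and Phgdh, the first enzyme of serine synthesis, by 0.44 ± 0.16 [not called at 0.43, 0.44 and 0.05 without R1, R2 and B3]. Sterol and lipid synthesis genes had 12 of 22 higher and 3 lower (10 and 2 without library B3), with Insig1, which holds back the sterol-sensing factors, at 0.43 ± 0.09. After rmTGF-β1 alone 3 were higher and 5 lower, and in wild type cells with rmCIRP 12 and 2. The difference with and without rmCIRP was called for 0 of these sterol genes. Between the genotype labels the response was higher under the TLR4-/- label for 2 and lower for 1. Secretory pathway genes had 8 of 22 higher and 0 lower (14 and 0 without library B3, 5 higher without B2), among them Dnajb9 at 0.48 ± 0.06 and Hspa5, the chaperone BiP, at 0.19 ± 0.04. Glycolysis gave 4 higher and 5 lower of 20 (3 and 3, 2 lower without R2), and the cell cycle 2 and 2 of 28 (2 and 2, 9 lower without B1).

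**Figure D5:**
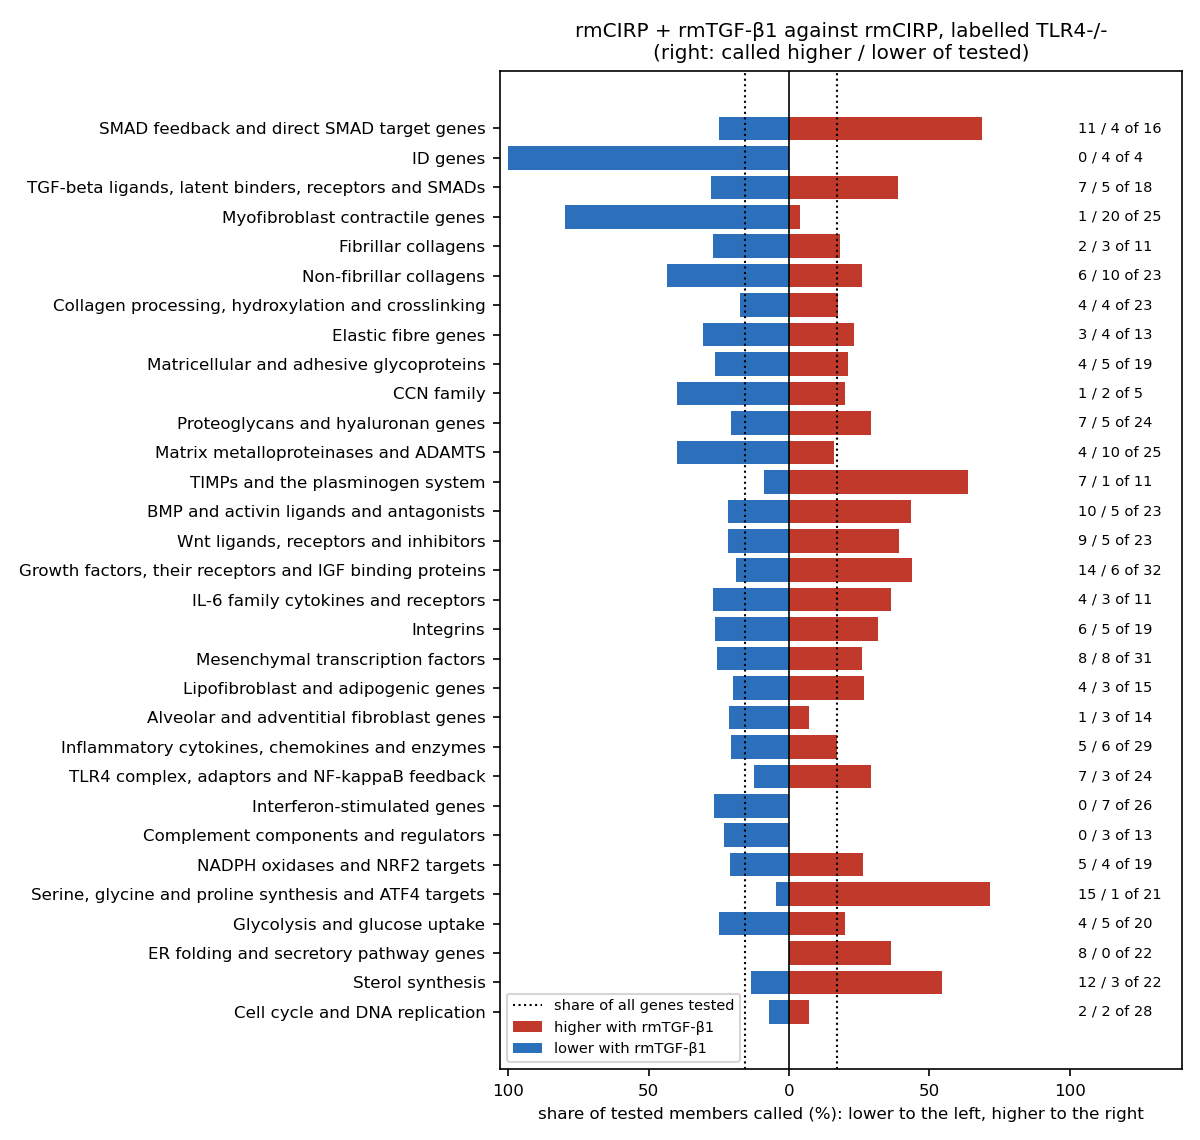
Share of the tested members of each gene group called higher (red, to the right) and lower (blue, to the left) when rmTGF-β1 was added to rmCIRP, in percent; dotted lines mark the shares of all genes tested, 17.2% higher and 15.6% lower. With all libraries the serine group extends farthest to the right with 15 of 21 members, and the Id and contractile groups farthest to the left with 4 of 4 and 20 of 25.

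In the lipid-bearing fibroblast group 4 of 15 members rose and 3 fell (3 and 2 without library B3, 7 higher without B1). Cebpa and Cebpb, factors of fat cell differentiation, rose by 1.09 ± 0.20 [0.68 without B3] and 0.60 ± 0.15, Plin2, a lipid droplet coat protein, by 0.43 ± 0.09 [0.25 without B3], and Lpl, lipoprotein lipase, fell from 1102, 1511 and 1266 to 892, 627 and 895 (-0.70 ± 0.13, adjusted p = 0.00075). Alveolar and adventitial fibroblast genes were mostly not called, 1 higher and 3 lower of 14 (1 and 2 without library B3). Of 10 endothelial markers 6 were higher, and library B3 was the highest in each; without it 1, Vwf, was called.

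The 15 largest rises, among genes called, with at least 50 normalized counts on average and no overlap between the groups (34.5% of all genes tested did not overlap), included Bmp2, Areg and Serpinb2 above. Xirp2, an actin-binding protein of striated muscle, had 33.4, 34.3 and 37.4 normalized counts with rmCIRP and 192, 357 and 404 with both (3.17 ± 0.41, adjusted p = 1.4e-05). Flrt3, a membrane protein that binds FGF receptors, went from 63.9, 45.5 and 56.0 to 196, 271 and 553 (2.61 ± 0.38, adjusted p = 5.6e-05). Il1rl1, the interleukin-33 receptor ST2, went from 1513, 1206 and 1634 to 2646, 4361 and 10562 (2.01 ± 0.35 [1.27 without B3], adjusted p = 0.00029). Kcnh1, a voltage-gated potassium channel, and Gjb2, connexin 26, rose by 2.22 ± 0.26 (2.01 without library B3) and 2.14 ± 0.29 (2.06). Others were Odaph (2.43 ± 0.26), Sema4f (2.17 ± 0.28), Btbd11 (2.09 ± 0.23) and Hr, a nuclear co-repressor (1.99 ± 0.20). Library B3 held most of the rise in Syt7 (2.40 ± 0.59 [0.97 without B3]) and in Penk, which encodes the enkephalin precursor (2.32 ± 0.52 [0.93 without B3]). Penk had 128, 113 and 167 with rmCIRP and 199, 316 and 1559.6 with both.

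The 15 largest falls under the same rule included Adamts5 and Inhbb above. Ptx3, the long pentraxin, a soluble pattern receptor made by fibroblasts, went from 1179.8, 1296 and 1376 to 290.0, 299.9 and 528 (-1.80 ± 0.19, adjusted p = 1.7e-06). Adm, the vasodilator peptide adrenomedullin, went from 3248, 3359 and 3194 to 1174, 1224 and 957 (-1.55 ± 0.14, adjusted p = 4.0e-07). Sorbs2, an adaptor of actin stress fibres, went from 467, 512 and 508 to 233, 194 and 144 (-1.38 ± 0.15, adjusted p = 1.7e-06). The remaining falls were Vinac1 (-1.51 ± 0.27), Ica1l (-1.46 ± 0.23), Sntg1 (-1.38 ± 0.16), the GABA receptor subunit Gabra4 (-1.37 ± 0.30), the orphan receptor Mrgprf (-1.31 ± 0.16), Scel (-1.31 ± 0.18) and Ccdc85a (-1.28 ± 0.11). The interferon genes Ifit3b (-2.24 ± 0.87 [not called at -0.93, -2.09, -2.19 and -2.45 without R2, B1, B2 and B3]) and Ifit3 (-2.04 ± 0.77 [not called at -0.48, -1.93, -2.04 and -2.15 without R2, B1, B2 and B3]) were high in library R2. They are near-identical copies, and reads without a unique alignment were tallied apart and left out of the counts. Bc1, a short non-coding RNA, had 689, 1701 and 746 with rmCIRP and 169.6, 173 and 217 with both (-2.50 ± 0.48, adjusted p = 0.00074). With PBS it had 243, 160 and 181, so its level with both was near that with PBS. After rmTGF-β1 alone it had 807, 1206 and 393 and was higher than with PBS, by 2.03 ± 0.49 on the log2 scale.

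Whether the response to rmTGF-β1 depended on rmCIRP was tested as the difference between the response with rmCIRP and the response over PBS, both in cells labelled TLR4-/-. After rmTGF-β1 alone 3884 genes changed (23.9%), 1975 higher and 1909 lower. The 2 responses use separate libraries, and 2249 genes were called in both, 42.2% of those called with rmCIRP and 57.9% of those called without, 2159 of them in the same direction; without library B3, 2280 were called in both (60.0% and 49.3%), 2208 in the same direction. The difference itself was called for 310 genes (1.91%), 172 with the higher response (1.06%) and 138 with the lower response (0.849%) when rmCIRP was present, and 2640 genes had an unadjusted p below 0.05. This count moved strongly with single libraries: without library B3 it was 216 (1.31%), without R2 9 and without B1 1621. Without the third library with rmTGF-β1 alone it was 1223. Beside each difference below stands the number of 12 omissions of 1 library in which it was still called, and square brackets give a value that moved by more than 1.5 times without the library named. Dio2, which makes active thyroid hormone, had 1819, 1362 and 1051 normalized counts with PBS, 390.1, 379 and 574 with rmTGF-β1, 1023, 870.5 and 1439 with rmCIRP and 729, 727 and 2513 with both, a difference between the log2 responses of 1.88 ± 0.52 [not called at 1.03 without B3], 5 of 12 (adjusted p = 0.091). Cebpb went from 1886, 1756 and 1683 with PBS to 1166, 1236 and 1519.8 with rmTGF-β1, and from 1217, 1055 and 1409.7 to 1561, 1908 and 2109.7 when rmCIRP was present (1.03 ± 0.21, 10 of 12, adjusted p = 0.037). Its partner Cebpd (0.65 ± 0.17, 5 of 12), the insulin-like growth factor binding protein Igfbp5 (1.13 ± 0.26, 7 of 12) and Adamts9 (0.81 ± 0.20 [0.54 without B3], 6 of 12) also had the higher response with rmCIRP. Wnt10b (-1.21 ± 0.30, 4 of 12) and Wnt9a (-0.76 ± 0.16, 10 of 12) had the higher response without it, as had the tropomyosins Tpm1 (-0.45 ± 0.12, 5 of 12) and Tpm2 (-0.41 ± 0.10, 6 of 12), the 2 contractile genes for which the difference was called, and the collagen enzymes Loxl2 (-0.28 ± 0.07, 5 of 12), P4hb (-0.20 ± 0.05, 3 of 12) and Bmp1 (-0.26 ± 0.05, 10 of 12). Tpm1 had 118983, 121701 and 116169 with PBS and 126911, 134480.0 and 106250.0 with rmTGF-β1, and 127796, 134832 and 124943 with rmCIRP and 108985, 106212 and 79137 with both.

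Whether the response with rmCIRP differed between the genotype labels was tested in the same way. In wild type cells 3329 genes changed when rmTGF-β1 was added to rmCIRP (20.5%), 1629 higher and 1700 lower; 1847 were called under both labels, 34.7% of those under the TLR4-/- label and 55.5% of those in wild type, 1778 in the same direction; without library B3, 2009 were called under both (52.8% and 49.6%), 1970 in the same direction. The difference was called for 843 genes (5.19%), 537 with the higher (3.3%) and 306 with the lower response (1.88%) under the TLR4-/- label, and for 342 (2.07%) without library B3. As given above, macrophage marker sums were far higher under the TLR4-/- label, and the genotype and the pools of cells cannot be told apart. Eln had 395, 257 and 272 normalized counts in wild type cells with rmCIRP and 1749, 1665 and 1599 with both, a log2 fold change of 2.44 ± 0.28 against 0.65 ± 0.27 under the TLR4-/- label, a difference of -1.79 ± 0.39, 12 of 12 (adjusted p = 0.025). Type I collagen parted likewise: Col1a1 had 198032, 188840.0 and 177896 and 228624, 221512 and 223857 in wild type cells (0.25 ± 0.08), a difference of -0.46 ± 0.11, 11 of 12 (adjusted p = 0.036). Tgfb2 (-1.01 ± 0.22, 12 of 12), Tgfb3 (-0.73 ± 0.18, 11 of 12), Adamts5 (-1.40 ± 0.24, 12 of 12) and Ccn2 (-0.49 ± 0.12, 10 of 12) also had the lower response under the TLR4-/- label. The opposite held for Areg (2.69 ± 0.56, 12 of 12), Serpinb2 (2.11 ± 0.56, 6 of 12), Il11 (1.27 ± 0.34, 8 of 12), Itgb3 (1.38 ± 0.32, 12 of 12) and Slc7a11 (1.03 ± 0.30 [not called at 0.58 without B3], 4 of 12). In wild type cells the mean normalized counts with rmCIRP were 314 for Areg and 58336 for Serpinb2, and 226 and 53589 with both. Under the TLR4-/- label the means with both were lower, 150 and 24174, so the higher response is not a higher level. Il11 had 61034, 56351 and 67619 and 101834, 95414 and 100119 in wild type cells. Adamts5, with the lower response, had means with both of 374 under the TLR4-/- label and 318 in wild type cells. With rmCIRP its means were 1102 and 354, so this lower response is not a lower level.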

How the data were processed

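Mouse lung fibroblast RNA was sequenced as stranded total RNA libraries. The deposited files hold raw counts of reads per gene made by the authors with HTSeq after alignment with STAR2, for 55291 gene names and 5 tally lines, with build NCBIM37 per the labels' processing notes; the strand option of the counting is not given in the sources used here. The tally lines (14.9-15.6% of the total in the 6 libraries) were left out, and 0 other columns of per-sample values were present. Counts of all 24 libraries were fitted together with edgeR 4.0.16 (R 4.3.3; TMM scaling, filterByExpr by the 8 conditions, quasi-likelihood test, 1 mean per condition), which left 16258 of 34285 detected genes, with Benjamini-Hochberg adjusted p-values called below 0.1. A log2 fold change is given with its standard error. Normalized counts are counts divided by DESeq2 1.42.0 size factors, and they depend on gene length, so levels were not compared between genes. The fit was tested on simulated data.

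The named genes were members of 31 pathway lists and of 7 cell marker lists, the 15 largest rises and falls among called, non-overlapping genes with at least 50 normalized counts on average, and the 5 largest differences in each direction between responses. Members and lists were chosen with earlier results of these data known. A few genes that these rules would name are not reported here. Two-way differences between responses were contrasts in the same fit. Alternatives were RLE size factors, 2 other filters, DESeq2, a stricter threshold, a replicate block, only the libraries compared and leaving out each library; limma 3.58.1 voom with library weights was chosen after seeing the data. Promoter sequences are from RefSeq (GRCm38.p6), a later build than the authors', so no coordinates were joined to the counts. The 6 libraries held 32713478-37691268 counted reads, and the spread between libraries, not counting error, set the precision.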

Additional observations from a re-analysis of the deposited data

Results flagged for a closer look

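The response to rmTGF-β1 differed between rmCIRP and PBS, in cells labelled TLR4-/-, for 310 genes, and the response with rmCIRP differed between the genotype labels for 843 genes, each by edgeR's test of the difference itself. The values below are differences of log2 fold changes, each with its adjusted p-value and the number of 12 omissions of 1 library in which it was still called; square brackets give a value that moved by more than 1.5 times without the library named. No explanation was tested for any of them.

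Among the largest differences between the responses with and without rmCIRP, the response was higher with rmCIRP for Dio2 at 1.88 [not called at 1.03 without B3] (adjusted p = 0.091, 5 of 12), for the lipase gene Liph at 1.53 (adjusted p = 0.08, 5 of 12), for Pi15 at 1.52 [0.99 without B3] (adjusted p = 0.057, 6 of 12), for Mir703 at 1.41 (adjusted p = 0.049, 9 of 12) and for Scand1 at 1.36 (adjusted p = 0.04, 10 of 12). It was lower with rmCIRP for Bc1 at -4.53 (adjusted p = 0.0087, 12 of 12), for Syn2, a synapsin, at -0.94 (adjusted p = 0.058, 6 of 12), for Shisa6 at -0.93 (adjusted p = 0.095, 4 of 12), for Prr33 at -0.84 (adjusted p = 0.068, 5 of 12) and for Ttc41 at -0.77 (adjusted p = 0.088, 5 of 12). Bc1 and Mir703 are short RNAs, which a library of this kind reads only in part. Adding rmTGF-β1 moved Bc1 up over PBS (2.03 ± 0.49) and down over rmCIRP (-2.50 ± 0.48), and its counts with both proteins were near those with PBS. Of the pathway genes, Cebpb differed by 1.03 (adjusted p = 0.037, 10 of 12), Cebpd by 0.65 (adjusted p = 0.076, 5 of 12), Igfbp5 by 1.13 (adjusted p = 0.049, 7 of 12) and Adamts9 by 0.81 [0.54 without B3] (adjusted p = 0.064, 6 of 12). Differences in the other direction were found for Wnt10b at -1.21 (adjusted p = 0.064, 4 of 12), Wnt9a at -0.76 (adjusted p = 0.037, 10 of 12), Tpm1 at -0.45 (adjusted p = 0.076, 5 of 12), Tpm2 at -0.41 (adjusted p = 0.06, 6 of 12), Loxl2 at -0.28 (adjusted p = 0.077, 5 of 12), P4hb at -0.20 (adjusted p = 0.087, 3 of 12) and Bmp1 at -0.26 (adjusted p = 0.028, 10 of 12). Without library R2, 1 of these 21 differences was still called, and without the first rmTGF-β1 library also 1.

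Between the genotype labels, the response was higher under the TLR4-/- label for Csf2, the cytokine GM-CSF, at 3.51 (adjusted p = 0.0055, 12 of 12), Col13a1 at 2.85 [not called at 1.13 without B3] (adjusted p = 0.07, 4 of 12), Areg at 2.69 (adjusted p = 0.018, 12 of 12), Syt7 at 2.59 [not called at 1.16 without B3] (adjusted p = 0.057, 6 of 12) and Penk at 2.51 [not called at 1.12 without B3] (adjusted p = 0.043, 9 of 12). Csf2 had 7.89, 8.01 and 18.5 normalized counts with both proteins and 0, 2.78 and 0.983 with rmCIRP, at or under 3 reads in every rmCIRP library, so its fitted fold change depends on the prior count and is no measure of size. Each of these 5 largest differences went with a lower mean with both proteins under the TLR4-/- label than in wild type cells. Csf2 had a mean of 11.5 against 110.8 with both proteins, and of 1.26 against 155.6 with rmCIRP. Most of its reads were thus in wild type cells, and its call in 12 of 12 omissions rests on few reads under the TLR4-/- label. The other means with both were 57.8 against 93.6 for Col13a1 and 150 against 226 for Areg. They were 164 against 360 for Syt7 and 692 against 3559 for Penk. The response was also higher for Serpinb2 at 2.11 (adjusted p = 0.052, 6 of 12), Itgb3 at 1.38 (adjusted p = 0.027, 12 of 12), Il11 at 1.27 (adjusted p = 0.05, 8 of 12) and Slc7a11 at 1.03 [not called at 0.58 without B3] (adjusted p = 0.069, 4 of 12). The response was lower under the TLR4-/- label for Eln at -1.79 (adjusted p = 0.025, 12 of 12), the adhesion molecule Cadm1 at -1.68 (adjusted p = 0.0014, 12 of 12), the sialyltransferase St8sia2 at -1.57 (adjusted p = 0.021, 12 of 12), Nfatc2 at -1.56 (adjusted p = 0.039, 11 of 12) and Clec2e at -1.50 (adjusted p = 0.013, 12 of 12). The same direction was found for Adamts5 at -1.40 (adjusted p = 0.0072, 12 of 12), Tgfb2 at -1.01 (adjusted p = 0.025, 12 of 12), Tgfb3 at -0.73 (adjusted p = 0.04, 11 of 12), Ccn2 at -0.49 (adjusted p = 0.037, 10 of 12) and Col1a1 at -0.46 (adjusted p = 0.036, 11 of 12). Under the TLR4-/- label itself Nfatc2 and Clec2e were not called, at -0.07 and -0.09. Nfatc2 had means of 9.20 with rmCIRP and 26.4 with both in wild type cells, against 297 and 285 under the TLR4-/- label. Its difference thus rests on few reads in wild type cells. Adamts5 had means with both of 374 under the TLR4-/- label and 318 in wild type cells, so its lower response is not a lower level. Library B3 carried much of several rises: without it 13 of these 19 differences were still called, and without the third wild type rmCIRP library 10.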

How the results depend on the processing

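For the 5329 calls for adding rmTGF-β1 to rmCIRP, size factors of the RLE kind, a mean count filter of 10, no filter, DESeq2, an adjusted p-value below 0.05, a replicate block, limma voom with library weights and leaving out each of the 6 libraries in turn kept both counts within 1.5 times of 2791 higher and 2538 lower; fitting only the 6 libraries compared gave 1503 and 1207, and lowered the pathway genes called from 316 to 198. Between 28 and 30 of the 30 genes with the largest changes stayed called in their direction under every setting tried; voom was not run for them. No gene named in the report changed sign with a call in both fits; Cxcl1, not called with all libraries at 0.57, was called at -0.85 without library B3 and at 1.01 without B1. The counts of rmTGF-β1 alone and of wild type cells also stayed within 1.5 times, except that the 1909 lower after rmTGF-β1 alone ranged over 1195-1816 when 1 library was left out (1195 without rmTGF-β1 library 3), and the 1700 lower in wild type cells over 1085-1402 (1085 without rmCIRP library 3).

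The counts of differences between responses moved most. For the 310 genes with and without rmCIRP, DESeq2 gave 597, an adjusted p-value below 0.05 gave 80, voom 1242, no filter 1357 and only the libraries compared 4. Leaving out 1 library gave 9-1621: 112 and 9 without R1 and R2, 1621 without B1, 104 and 51 without PBS libraries 1 and 2, and 46, 80 and 1223 without rmTGF-β1 libraries 1, 2 and 3. For the 843 genes between genotype labels, the same settings gave 342 at the stricter threshold, 1482 by voom, 1811 with no filter and 186 with only the libraries compared. Leaving out 1 library gave 257-2633: 459 and 274 without R1 and R2, 2633 and 342 without B1 and B3, 532 and 257 without wild type rmCIRP libraries 2 and 3, and 406, 320 and 549 without the wild type libraries with both proteins. The 0 genes called for rmCIRP against PBS became 33 by DESeq2, 149 with no filter, 29 with only the libraries compared and 0-9 when 1 library was left out (9 without R3, 1 without PBS library 1). The cause was not tested in any of these cases, apart from the fewer samples or genes that some settings hold by construction. With the replicate number as a block, rmCIRP against PBS gave 1 gene and the difference with and without rmCIRP 475. The numbers share no stated source. Same-numbered libraries of the main comparison deviated together with correlations of -0.02, 0.02 and 0.07. Same-numbered libraries with rmTGF-β1 alone and with both proteins were not compared in this way, so a source shared between those groups was not tested. On the first principal component the third library lay highest in each of them, at 17.2 with rmTGF-β1 alone and 24.0 with both proteins.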

Other observations

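Marker genes of other cell types that a lung culture can hold gave these values when rmTGF-β1 was added to rmCIRP. Of 6 mesothelial markers tested 4 were lower (1 without library B3), and the list summed to 997-1131 normalized counts with rmCIRP and 707-851 with both proteins. Endothelial markers summed to 920-975 and 1010-1783, with library B3 the highest. Of 8 mural markers 2 were higher and 4 lower (2 and 3 without library B3). Rgs5, a pericyte gene, rose by 0.78 ± 0.17 and Cspg4, the NG2 proteoglycan, by 1.09 ± 0.10, while Myh11 and Cnn1, which hold most of the list's reads, were among those that fell. Of 6 epithelial markers tested of 12, 0 were called (1 lower without library B3), and of 10 fibroblast markers 1 was higher and 3 lower (1 and 2 without library B3).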
